A study of Mus musculus with 14 samples.

Results

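Mir191 and Mir425 are a pair of miRNA hairpin genes that lie side by side in the mouse genome. Their mature products miR-191-5p, miR-191-3p and miR-425-5p are described here along the mouse epididymis. These 3 members were taken by name from the 578 miRNA names that both deposited count tables list, out of 999 names that either table lists. They were chosen by name and by being listed in both tables, so that their presence in both preparations is not a result. The choice was made with earlier results of these data known. Each table counts small RNA reads per mature miRNA, 1 table for whole epididymal tissue and 1 for isolated epithelial cells.

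The mice were Swiss males aged 8 weeks. Their blood vessels were rinsed with PBS and each epididymis was divided into caput, corpus and cauda before any RNA was taken. The whole tissue libraries (3 caput, 2 corpus and 3 cauda) each held tissue pooled from 3 mice. The epithelial libraries (2 per region) each held cells pooled from 9 mice for the caput and corpus or 12 mice for the cauda, which had been cleared of sperm, digested with trypsin and collagenase, and kept in suspension while other cells attached to plastic. No mouse carried a treatment or an engineered allele, and the regions are compared with one another. Sources differ on how libraries and pools correspond, so replicates may be partly technical, and the p-values then measure only the spread between these libraries.

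A miRNA hairpin is cut by DICER1 into a duplex, of which usually 1 arm, the guide, is loaded into an Argonaute protein while the other arm is degraded. The guide recognises transcripts mainly through its seed, bases 2 to 8 from its 5′ end. The epididymis is a long tubule in which sperm mature as they pass from caput to cauda, and the muscle around the tubule thickens towards the cauda. miR-191-5p is found in most tissues and, with miR-425-5p, is on many lists of reference miRNAs against which qPCR values are scaled.

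The mature sequences are shown because the names of the 4 arms are close to one another while the sequences are not. They were taken from RefSeq (GRCm38.p6), 5′ to 3′, with the seed in capitals. miR-425-3p, the other arm of the second hairpin, is not one of the members and is shown for comparison.
miR-191-5p: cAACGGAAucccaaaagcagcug
miR-191-3p: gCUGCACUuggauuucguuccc
miR-425-5p: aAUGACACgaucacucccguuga
miR-425-3p: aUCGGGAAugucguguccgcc
No seed was shared among these 4 arms, and the longest run of bases shared by any pair was 5. Among 1679 mature mouse names, no other carried the seed of miR-191-5p or of miR-191-3p. The seed of miR-425-5p was also that of miR-489-3p, which was identified in neither preparation, a miRNA being called identified where its mean count in at least 1 region was above 10.

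Both hairpins are on the plus strand of chromosome 9, Mir191 at chr9:108568319-108568392 and Mir425 at chr9:108568777-108568861 (GRCm38.p6). The hairpin sequences are given with both mature arms in capitals, the 5p arm first.
Mir191: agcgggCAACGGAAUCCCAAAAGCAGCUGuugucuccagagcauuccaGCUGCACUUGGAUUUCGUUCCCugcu
Mir425: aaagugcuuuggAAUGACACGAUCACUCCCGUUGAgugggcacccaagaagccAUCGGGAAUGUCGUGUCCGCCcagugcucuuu
The hairpins are 74 and 85 bases long with 384 bases between them, and the RefSeq miRNA table holds no other hairpin within 10 kb of them. In RefSeq both lie inside the gene Dalrd3 (chr9:108567484-108572773). In GENCODE M21, annotated on GRCm38, Dalrd3 starts downstream of both, at position 108569886. There both hairpins lie within the only exon of the long non-coding transcript 4833445I07Rik-201 (chr9:108567533-108569174), and Mir191 also lies in an intron of the shorter transcript 4833445I07Rik-202. An antisense miRNA gene, Gm24083, overlaps Mir191 on the minus strand, and whether the counting used strand is not given in the sources used here.

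**Figure D1:**
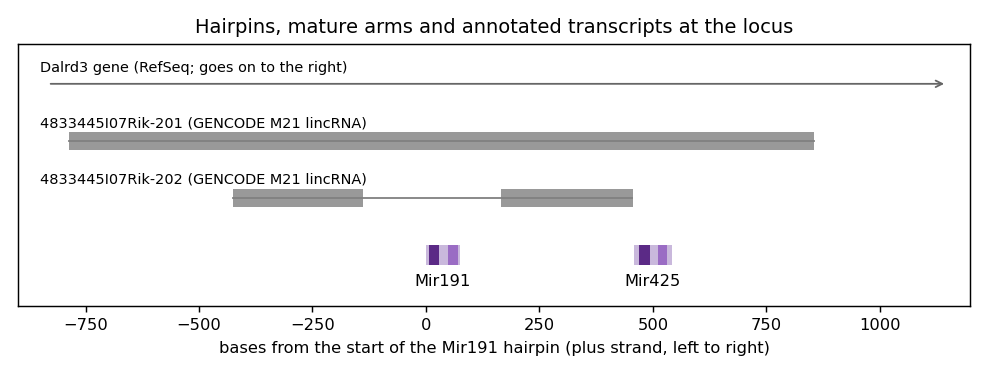
Map of the locus, with distance in bases from the start of the Mir191 hairpin on the x axis and each annotated feature on a row of its own. Pale bars are hairpins, dark bars within them the 5p arm and mid-tone bars the 3p arm, grey bars are exons, and the arrow is the RefSeq span of Dalrd3. The hairpins lie 384 bases apart within 1 exon of 4833445I07Rik-201.

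Total counts ran from 1243398 to 2135501 per whole tissue library and from 89039 to 362867 per epithelial library. Replicates of a region differed by more than counting noise (chi-square per degree of freedom between 9.13 and 63.9), so errors are SDs between libraries. All 3 members were among the 360 miRNAs identified in whole tissue. In epithelial cells miR-191-5p and miR-425-5p were among the 216 identified, and miR-191-3p was not. Levels are CPM, a library's counts scaled to a common total, after TMM normalization within each preparation. Regions were compared by limma-voom, with a false discovery rate (FDR) over all miRNAs tested, and a change was called at an FDR below 0.05 and at least 2-fold.

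miR-191-5p was one of the most abundant miRNAs in every library and fell along the duct in whole tissue. Its CPM was 92709, 98292 and 102103 in the 3 caput libraries, 57090 and 54674 in the 2 corpus libraries, and 30747, 25211 and 30377 in the 3 cauda libraries. No library of 1 region reached the range of another. Its share of all counts was 8.42% ± 0.253 for the caput (SD, n = 3), 6.07% ± 0.108 for the corpus (n = 2) and 3.16% ± 0.302 for the cauda (n = 3). Among the 360 identified miRNAs it held place 4 in every caput library, place 7 in both corpus libraries and place 8 in every cauda library.

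From caput to cauda of whole tissue, miR-191-5p fell by 1.77 on the log2 scale (SE 0.086, FDR = 8.83e-08), from 97701 ± 4724 to 28778 ± 3095 CPM (SD, n = 3 each). This is 3.41-fold lower, with a 95% interval of the fold from 0.257 to 0.336, and it was called. In this comparison 53.2% of the 355 miRNAs tested were called in either direction and 25.4% were called lower, so that a call was common, and the change of miR-191-5p held place 48 from the largest fall. The caput to corpus step was -0.81 (SE 0.096, FDR = 7.25e-05) and the corpus to cauda step -0.96 (SE 0.098, FDR = 3.66e-05) on the log2 scale. Each step was past the FDR threshold but under 2-fold, at 1.75-fold and 1.95-fold lower. The size of both depended on the scaling and on single libraries, while all values stayed past the FDR threshold. The first step was -0.47 with library totals and, past 2-fold, -1.04 under scaling by the 16 reference miRNAs. The second was -0.51 under reference scaling and, past 2-fold, -1.01 without cauda replicate 1 and -1.004 without cauda replicate 3. In these steps 59.3% and 54.3% of the miRNAs tested were past the FDR threshold, and 29.9% and 27.3% were called.

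In epithelial cells miR-191-5p was also highest in the caput. The caput libraries had 71378 and 60529 CPM, those of the corpus 38340 and 26849, and those of the cauda 22356 and 28462. Both caput libraries stood above all others, while the corpus and cauda ranges overlapped. It fell from caput to cauda by 1.38 on the log2 scale (SE 0.22, FDR = 0.00223), which is 2.61-fold lower and was called, beside 25.9% of the 216 miRNAs tested that were called and 12% that were called lower.

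The epithelial caput to corpus change of miR-191-5p was -1.03 (SE 0.22, FDR = 0.0131, 2.05-fold lower), just past both thresholds, with 12.2% of 205 miRNAs called and 19% past the FDR threshold. Its FDR was above 0.05 without some single libraries, at 0.0557 without caput replicate 1 (log2 change -0.89), 0.0703 without caput replicate 2 (-1.12) and 0.0747 without corpus replicate 2 (-0.75). The number of all miRNAs called in this step, 25, was 16, 10 and 25 in these 3 fits. Without cauda replicate 1 (-0.98), with library totals (-0.87), DESeq2's size factors (-0.93) or Wald test (-0.92), and in a fit of these regions alone (-0.96) the change was past the FDR threshold but under 2-fold. From corpus to cauda the change was -0.35 (SE 0.22, FDR = 0.299), and its 95% interval from -0.85 to 0.16 holds both a fall close to 2-fold and no change. It was -0.09 without corpus replicate 1, -0.61 without corpus replicate 2, -0.17 without cauda replicate 1 and -0.55 without cauda replicate 2. In that step 10.9% of the miRNAs tested were called and 13.5% were past the FDR threshold.

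**Figure D2:**
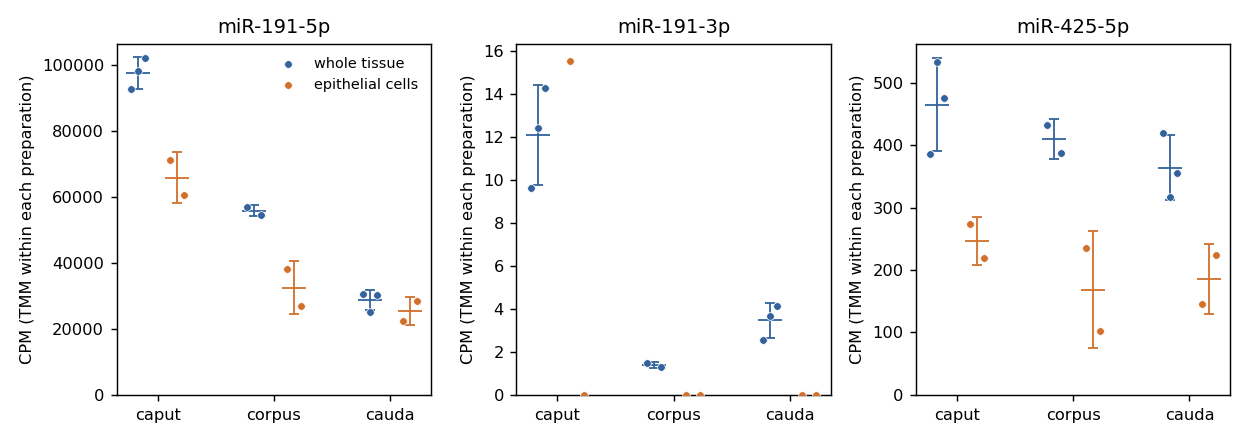
CPM of each member in every library, with region on the x axis and a linear y axis from 0 that differs between panels. Points are libraries, horizontal bars are means and error bars are SDs of 2 or 3 libraries, drawn where no library is at 0. miR-191-5p steps down from caput to cauda in whole tissue (blue), where miR-425-5p stays between 316 and 533 CPM, and miR-191-3p has reads in 1 epithelial library (orange).

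miR-425-5p, the guide of the neighbouring hairpin, was far less abundant and changed less between regions. The whole tissue caput libraries had 385, 533 and 475 CPM, those of the corpus 433 and 387, and those of the cauda 420, 316 and 355. The 3 ranges overlapped. It held places between 77 and 100 among the 360 identified miRNAs. The means were 464 ± 74.2 (SD, n = 3), 410 ± 32.2 (n = 2) and 364 ± 52.3 CPM (n = 3).

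The caput to cauda change of miR-425-5p in whole tissue was -0.34 (SE 0.14, FDR = 0.0476), or 1.27-fold lower, which was under 2-fold and not called. In this comparison 79.2% of the miRNAs tested were past the FDR threshold, and the median of all was -0.05. The FDR was above 0.05 under 7 of 9 other settings and without 6 of the 8 libraries in turn, as set out among the dependences on processing. Scaling by library totals, which moved the median change of all miRNAs by 0.35, put the change at 0.0031 (FDR = 0.984). The caput to corpus and corpus to cauda changes were both -0.17, with FDR = 0.385 and FDR = 0.369. With single libraries left out the first ran from -0.27 (without caput replicate 1) to -0.0093 (without caput replicate 2), and the second from -0.28 (without cauda replicate 1) to -0.07 (without corpus replicate 1), none past the threshold.

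In epithelial cells miR-425-5p rested on few reads: 88 and 68 counts for the caput, 29 and 10 for the corpus, and 39 and 47 for the cauda. These are 274 and 219 CPM, 235 and 102 CPM, and 145 and 224 CPM in the same order. The ranges of the 3 regions overlapped. Its caput to cauda change was -0.45 (SE 0.36, FDR = 0.329), with a 95% interval from -1.28 to 0.38, which includes both no change and a fall of more than 2-fold, where 39.4% of the miRNAs tested were past the FDR threshold. The caput to corpus change was -0.58 (FDR = 0.371) and the corpus to cauda change 0.13 (FDR = 0.837). All 3 values moved with single libraries. From caput to corpus the change was -0.015 without corpus replicate 2 and -1.20 without corpus replicate 1. From caput to cauda it was -0.06 without cauda replicate 1 and -0.75 without cauda replicate 2. From corpus to cauda its sign turned, to -0.41 without corpus replicate 2 and -0.20 without cauda replicate 2.

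The relation of the neighbouring guides was also followed as a ratio of their counts within each library, which needs no normalization between libraries. In whole tissue there were 241, 185 and 215 reads of miR-191-5p for each read of miR-425-5p in caput libraries, 132 and 141 in corpus libraries, and 73.2, 79.7 and 85.4 in cauda libraries. The regions did not overlap, and the ratio stepped down with each region. Its geometric mean was 2.68-fold higher in the caput than in the cauda. The ratio differed between regions in an exact permutation test of the variance between them (p = 0.00357 over 560 arrangements, the smallest p this design allows, and 0.00714 after Benjamini-Hochberg adjustment over the 4 ratio tests).

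The epithelial ratios were 261 and 276 for the caput, 163 and 263 for the corpus, and 154 and 127 for the cauda. The geometric mean was 1.93-fold higher in the caput than in the cauda, and the caput and cauda libraries did not overlap. The exact permutation test over the 3 regions gave p = 0.0667 (adjusted 0.0667), which is the smallest p that 90 arrangements allow, so this design cannot reach 0.05.

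**Figure D3:**
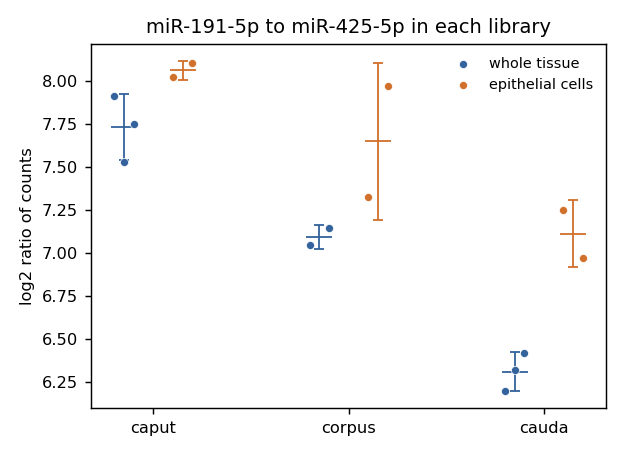
Log2 of the ratio of miR-191-5p to miR-425-5p counts, with 0.5 added to each count, on the y axis and region on the x axis. Points are libraries, horizontal bars are means and error bars SDs (n = 2 or 3), blue for whole tissue and orange for epithelial cells. In whole tissue the ratio steps down from caput to cauda without overlap, and within each region every epithelial library is above the whole tissue libraries.

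Across the 8 whole tissue libraries the log2 CPM of miR-191-5p and of miR-425-5p had Pearson's r = 0.739 and Spearman's rho = 0.810, with r = 0.735 after the region means were removed. Across the 6 epithelial libraries r was 0.702, rho 0.771 and the value within regions 0.985. The points share libraries, normalization and depth, and the values are given as a description.

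miR-191-3p, the arm opposite to miR-191-5p, was rare throughout. It had 15, 18 and 26 counts in the whole tissue caput libraries, 2 and 2 in those of the corpus, and 5, 6 and 7 in those of the cauda. All 3 caput libraries were above all others, and both corpus libraries were lowest. It was identified through the caput alone, so a filter on identified miRNAs would already set its caput apart. Its changes are therefore given from the fit of all 878 miRNAs with a count, at -2.79 from caput to corpus (FDR = 0.00113) and -1.75 from caput to cauda (FDR = 0.000912), where 23.7% and 38.2% of the miRNAs tested were past the FDR threshold. In CPM terms the summed counts, 59, 4 and 18, put the caput 8.75-fold above the corpus (exact 95% counting interval 3.24 to 33.2) and 3.57-fold above the cauda (2.08 to 6.44). The corpus was at 0.409 of the cauda, with an interval from 0.101 to 1.24 that includes no difference. These intervals cover counting error only.

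As a share of both arms of Mir191, miR-191-3p made up 0.0125% of the reads for the whole tissue caput (exact Clopper-Pearson 95% interval 0.00950 to 0.0161), 0.00250% for the corpus (0.000682 to 0.00641) and 0.0118% for the cauda (0.00701 to 0.0187). The caput and cauda intervals overlapped, and the corpus interval lay below both. The log2 ratio of miR-191-5p to miR-191-3p was 12.96 ± 0.21 for the caput (SD, n = 3), 14.96 ± 0.089 for the corpus (n = 2) and 12.92 ± 0.42 for the cauda (n = 3). It differed between regions in the exact permutation test (p = 0.0321, adjusted 0.0429) but not when libraries were permuted within replicate numbers (p = 0.0833, exact permutation), and the corpus value rests on 2 reads of miR-191-3p in each library. Without any 1 of 7 of the 8 libraries, p was between 0.0667 and 0.129.

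In epithelial cells miR-191-3p had 5 counts in caput replicate 1 and 0 in the other 5 libraries. At the whole tissue share of the same region, at most 2.86 reads would have been counted in any epithelial library, so these zeros were within what the depth gives. In caput replicate 2, 0 of 18787 reads of Mir191 allows a share of up to 0.0160% taken as 3 reads, or 0.0196% as the upper Clopper-Pearson bound. No ratio test was made for this arm in epithelial cells.

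miR-425-3p, the arm opposite to miR-425-5p, was also scarce, with 7, 7 and 11 counts in the whole tissue caput libraries, 0 and 1 in those of the corpus, and 4, 1 and 4 in those of the cauda. It was identified in neither preparation and was not tested. It made up 1.11% of the reads of Mir425 for the caput (0.716 to 1.63), 0.0855% for the corpus (0.00216 to 0.475) and 0.463% for the cauda (0.212 to 0.878). In both hairpins the 3p share was lowest in the corpus, on 4 reads for Mir191 and 1 read for Mir425. In epithelial cells it had 4 counts in caput replicate 2 and 0 in the other 5 libraries.

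**Figure D4:**
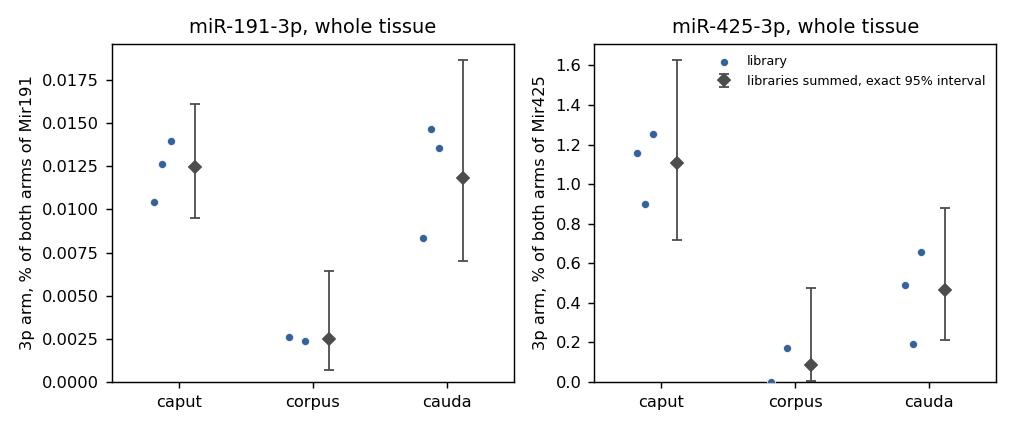
Share of the 3p arm among the reads of both arms of Mir191 (left) and Mir425 (right) in whole tissue, in percent, by region. Blue points are libraries, and diamonds are the libraries of a region summed, with exact 95% binomial intervals for counting error. The summed corpus share, 0.00250% for Mir191 and 0.0855% for Mir425, is below that of the caput with no overlap of the intervals.

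The preparations were compared within each region in a fit of all 14 libraries over the 194 miRNAs identified in both under the same name. miRNAs named differently in the tables, such as miR-126-3p and miR-126a-3p, were left out of it. Preparation, table, sequencing and pools of mice go together in this design and cannot be told apart. Levels here are CPM under 1 TMM scaling of all libraries. miR-425-5p was lower in epithelial cells than in whole tissue in every region. In the caput it had 380, 513 and 488 CPM in whole tissue and 215 and 206 in epithelial cells. In the corpus it had 458 and 410 against 222 and 104, and in the cauda 455, 345 and 399 against 141 and 224. In no region did the preparations overlap.

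The difference, epithelial minus whole tissue, was -1.11 for the caput (SE 0.24, FDR = 0.00121), -1.42 for the corpus (SE 0.37, FDR = 0.00681) and -1.17 for the cauda (SE 0.29, FDR = 0.00259) on the log2 scale. All 3 were called, beside 37.1%, 30.4% and 39.7% of the 194 miRNAs called in the same comparisons. The median difference of all 194 was -0.28, -0.03 and 0.08. The caput value stayed past the FDR threshold but under 2-fold with library totals (-0.81), all miRNAs with a count (-0.97), miRNAs of 10 counts in each library (-0.96) and reference scaling (-0.94), and without epithelial cauda replicate 2 (-0.98). The cauda value did so without epithelial cauda replicate 1 (-0.99). The caput value was -0.80 (FDR = 0.0507) without epithelial caput replicate 2, and the corpus value -1.07 (FDR = 0.0522) without epithelial corpus replicate 2 and -2.17 without epithelial corpus replicate 1.

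miR-191-5p was also lower in epithelial cells, by less than 2-fold in each region in the fit of all libraries. In the caput it had 91342, 94772 and 104818 CPM in whole tissue and 56103 and 56824 in epithelial cells, a difference of -0.78 (SE 0.13, FDR = 0.000133). In the corpus it had 60408 and 57934 against 36160 and 27471, a difference of -0.90 (SE 0.15, FDR = 0.000235). The corpus difference passed 2-fold, and so was called, with the filter of 10 counts in each library (-1.04), without either whole tissue corpus library (-1.08 and -1.04), without epithelial corpus replicate 1 (-1.29) and without epithelial cauda replicate 1 (-1.05). In the cauda the libraries overlapped, with 33278, 27521 and 34104 against 21717 and 28370. The cauda difference was -0.35 (SE 0.14, FDR = 0.0418), and it passed the threshold in 5 of 8 other settings. With a block on the replicate number its FDR was 0.117. Without single libraries in turn its FDR was above 0.05 for 4 of the 14, namely whole tissue cauda replicates 1 (0.0975) and 3 (0.111), epithelial caput replicate 1 (0.0517) and epithelial cauda replicate 1 (0.136). Past the FDR threshold in these comparisons were 60.3%, 47.9% and 61.9% of the 194 miRNAs.

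The ratio of miR-191-5p to miR-425-5p was higher in epithelial cells within each region, by 0.56 on the log2 scale on average (1.48-fold). The exact permutation of preparation within regions gave a two-sided p of 0.00167 over 600 arrangements (adjusted 0.00667), the smallest this design allows. The caput to cauda change of miR-191-5p did not pass the threshold for a difference between preparations, with an interaction of 0.43 (SE 0.19, FDR = 0.102) and a 95% interval from 0.02 to 0.84. In this test 32% of the 194 miRNAs were past the FDR threshold, 20.1% were also at least 2-fold, and the median interaction of all was 0.38. The estimate turned to -0.013 when the fit was limited to miRNAs that reached 10 counts in all libraries, and to -0.023 without epithelial caput replicate 2. For miR-425-5p the interaction was -0.07 (SE 0.38, FDR = 0.911), with an interval from -0.88 to 0.74.

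Marker miRNAs of cell types moved with the regions. In whole tissue the summed CPM of the 2 smooth muscle markers, miR-143-3p and miR-145a-5p, ranged from 53138 to 65867 for the caput, from 76133 to 80219 for the corpus and from 222830 to 248696 for the cauda, and both rose from caput to cauda. The 5 epithelial markers of the miR-200 family summed to between 20075 and 21754 for the caput, 15513 and 16184 for the corpus, and 7244 and 8734 for the cauda, and all 5 fell. The 8 germ cell markers summed to between 4092 and 5281, 4483 and 5336, and 9443 and 12234. The 4 leukocyte markers summed to between 960 and 1159, 1158 and 1446, and 1943 and 1979, the 3 red blood markers to between 23.6 and 32.4, 64.3 and 80.7, and 106 and 241, and the endothelial marker miR-126a-3p stood between 974 and 1020, 1029 and 1077, and 1229 and 1546, in the same order. No marker of the lists was at 0 in all libraries of a group. From caput to cauda of whole tissue, 79.2% of the 355 miRNAs tested were past the FDR threshold and 53.2% were called. In bulk samples, fewer cells of a type and less RNA per cell cannot be told apart, and the part of these marker shifts in the fall of miR-191-5p was not tested.

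The smooth muscle markers were abundant in epithelial libraries too. They summed to between 144399 and 195587 CPM for the caput, 209969 and 212081 for the corpus, and 158084 and 336612 for the cauda, and neither passed the test from caput to cauda. The epithelial markers summed to between 15233 and 17326, 17868 and 18199, and 13409 and 18642, and the germ cell markers to between 3799 and 4288, 2247 and 3384, and 2424 and 5817. From caput to cauda of epithelial cells, 1 of the 5 epithelial markers rose (miR-200b-3p, 0.89), 2 fell (miR-200c-3p, -0.86, and miR-429-3p, -0.75) and 2 did not pass the FDR threshold. Both leukocyte markers tested (miR-142-5p, 1.04, and miR-150-5p, 1.56), both red blood markers tested (miR-451, 1.21, and miR-144-3p, 2.18) and 3 of 7 germ cell markers (miR-465a-5p, 3.71, miR-881-3p, 3.21, and miR-871-3p, 2.29) were called higher in the cauda on the log2 scale. From caput to corpus, the endothelial marker miR-126-3p fell (-1.27), and of the 5 epithelial markers 1 rose (miR-141-3p, 1.01), 1 fell (miR-429-3p, -0.66) and 3 did not pass the threshold. Of 6 germ cell markers tested in that step, 3 rose (miR-881-3p, 3.33, miR-741-3p, 2.81, and miR-871-3p, 2.74), and 3 did not pass it, with values of -1.14 (miR-34c-5p), -0.98 (miR-449a-5p) and -0.88 (miR-34b-5p). From corpus to cauda, miR-126-3p (1.82), 1 of 2 leukocyte markers (miR-150-5p, 2.17) and 1 of 2 red blood markers (miR-451, 2.23) rose. In the same step 2 of the 5 epithelial markers fell (miR-141-3p, -1.19, and miR-200c-3p, -1.04), and the 7 germ cell markers had values from -0.92 to 1.24 that did not pass the threshold. The smooth muscle markers passed it in neither step. Of all 216 miRNAs tested between the epithelial caput and cauda, 39.4% were past the FDR threshold and 25.9% were called. For the caput to corpus step, 19% of 205 miRNAs were past it and 12.2% were called. For the corpus to cauda step, 13.5% of 192 miRNAs were past it and 10.9% were called. The part of these marker shifts in the fall of miR-191-5p in epithelial cells was not tested.

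Markers also differed between the preparations in the fit of 14 libraries, which held only markers named alike in both tables. miR-143-3p, the smooth muscle marker tested there, was higher in epithelial than in whole tissue libraries by 1.26 in the caput (FDR = 0.000215) and 1.28 in the corpus (FDR = 0.000973), with a cauda value of -0.26 (FDR = 0.328). Of the 5 epithelial markers, miR-141-3p (-1.24), miR-200a-3p (-1.12) and miR-429-3p (-0.42) were lower in epithelial caput libraries. In the corpus miR-200b-3p (0.76) and miR-429-3p (0.60) were higher, and in the cauda miR-200b-3p (2.08) and miR-429-3p (1.31) were higher and miR-141-3p (-0.36) lower. The leukocyte marker miR-150-5p was higher in epithelial libraries of the caput (1.39, FDR = 0.00223) and of the cauda (1.84, FDR = 3.44e-05), with a corpus value of -0.52 (FDR = 0.348), and the red blood marker miR-144-3p passed the threshold in no region. Of the 7 germ cell markers tested, 2 were lower in epithelial libraries of the caput, 2 in those of the corpus and 6 in those of the cauda. Of all 194 miRNAs, 60.3%, 47.9% and 61.9% were past the FDR threshold in these regions. The part of these markers in the lower levels of miR-191-5p and miR-425-5p in epithelial cells was not tested.

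The use of these miRNAs as references for scaling gives a further comparison. The SD of log2 CPM over the 8 whole tissue libraries was 0.825 for miR-191-5p and 0.236 for miR-425-5p, beside a median of 0.641 over the 360 identified miRNAs. Among the 3 members and 16 other miRNAs in wide use as qPCR references, ordered from lowest to highest SD, miR-425-5p held place 5 and miR-191-5p place 17 of 19. The lowest was miR-93-5p (0.0650, also the lowest of all 360) and the highest of the 16 miR-423-5p (0.879). miR-191-3p, at 1.19 on 2 to 26 counts per library, stood last. The highest CPM of miR-191-5p was 4.05-fold its lowest, and that of miR-425-5p 1.68-fold.

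In the 6 epithelial libraries miR-191-5p (SD 0.676) held place 17 and miR-425-5p (SD 0.532) place 15 of 18, where the lowest was miR-24-3p (0.142) and the highest miR-92a-3p (0.784). There miR-425-5p had 10 to 88 counts per library, and the part of counting noise in its SD was not tested. Of the 16 reference miRNAs in whole tissue, 5 were higher and 7 lower in the cauda than in the caput at an FDR below 0.05, and 7 and 3 with scaling by library totals. Of all 355 miRNAs tested, 79.2% were past this threshold, and 277 were with library totals. The median log2 change of the 16 was -0.13 beside -0.05 for all miRNAs tested, and with library totals 0.21 beside 0.30. In epithelial cells 3 of the 16 were higher and 0 lower under TMM, DESeq2's size factors and library totals, with a median of 0.12 under TMM. There 39.4% of the 216 miRNAs tested were past the threshold under TMM.

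**Figure D5:**
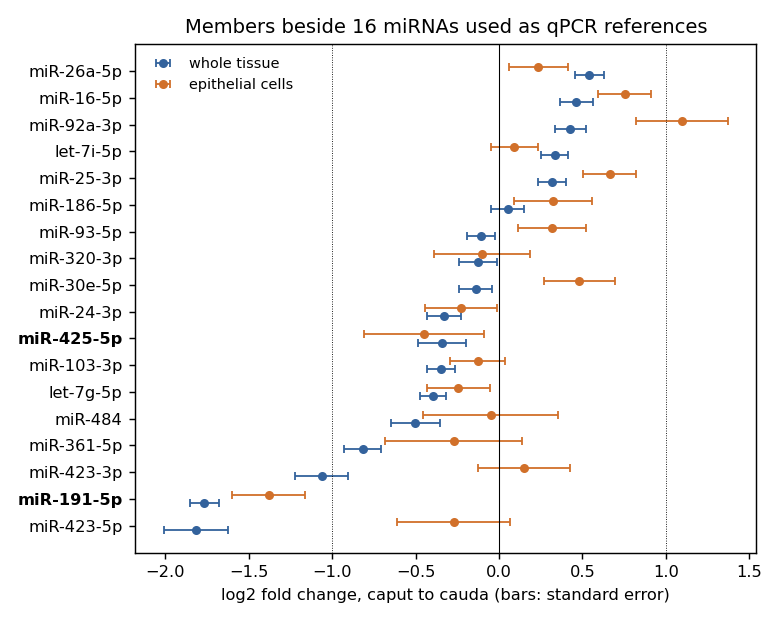
Caput to cauda changes (log2, TMM scaling) of miR-191-5p, miR-425-5p (bold) and 16 miRNAs used as qPCR references. Points are limma-voom estimates, bars standard errors, blue for whole tissue and orange for epithelial cells, and dotted lines mark 2-fold. miR-191-5p, at -1.77 and -1.38, is beyond the 2-fold line in both preparations, and miR-425-5p, at -0.34 and -0.45, in neither.

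The miRNAs whose pattern over libraries was most like that of each member were found by the root mean square (RMS) difference of log2 CPM centred on its mean. For miR-191-5p in whole tissue these were miR-183-5p (RMS difference 0.115), miR-99b-5p (0.118) and miR-744-5p (0.160) of 359 others, and in epithelial cells miR-182-5p (0.122), let-7c-5p (0.228) and miR-340-5p (0.229) of 215. miR-183-5p had 2423 ± 295, 1229 ± 106 and 686 ± 113 CPM in the caput, corpus and cauda of whole tissue, and miR-182-5p 7713 ± 1044, 3943 ± 551 and 2628 ± 404 CPM in those of epithelial cells. miR-182 and miR-183 are encoded in 1 hairpin cluster and are known from sensory organs and other epithelia. The neighbour miR-425-5p was at place 111 of 359 in whole tissue (0.626) and at place 26 of 215 in epithelial cells (0.443).

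For miR-425-5p in whole tissue the most similar were miR-151-3p (0.138), miR-103-3p (0.166) and miR-21a-5p (0.175), and in epithelial cells miR-125a-5p (0.241), miR-141-5p (0.259) and miR-151-5p (0.272). For miR-191-3p in whole tissue they were miR-92b-3p (0.320), miR-107-3p (0.340) and miR-32-3p (0.431). miR-92b-3p had 165 ± 46.3, 24.6 ± 11.6 and 38.1 ± 9.49 CPM from caput to cauda. Its mean was lowest in the corpus, as for miR-191-3p, and because it was chosen for its likeness this is no further result.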

How the data were processed

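Small RNA of 8 whole tissue and 6 epithelial libraries had been sequenced on an Illumina instrument. After trimming and removal of contaminants the authors aligned the reads to mm10 and to mature mouse miRNAs of miRBase, and deposited expected counts (estimated counts per mature miRNA, some of them fractions, not normalized). The deposited epithelial values carry 0.001 added to each, which was removed. The submitters' processing notes name CASAVA 1.8.2, Bowtie 1.1.1 and limma. How reads that match several miRNAs were shared is not given in the sources used here. Counts of different sequences also depend on how well each is ligated and amplified.

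Counts were rounded to whole numbers and TMM-normalized with edgeR 4.0.16. Under R 4.3.3, limma 3.58.1 was used for the voom test, with 1 fit per preparation, over miRNAs with a mean count above 10 in either region compared. The study's methods give limma and voom, a count above 10, a 2-fold filter and the FDR, and the other choices were made here. Adjustment was by Benjamini-Hochberg over all miRNAs tested. A further fit of 14 libraries gave differences between preparations and their interaction with region. CPM were logged after adding 0.5, and ratios after adding 0.5 to each count. A planned ratio test of miR-191-5p to miR-191-3p in epithelial cells, and between the preparations, was not made because 5 of 6 epithelial libraries held 0 reads of miR-191-3p. The members and lists were chosen with earlier results of these data known. The rule named the members, miR-425-3p, the reference miRNAs of lowest and highest SD, and the 3 miRNAs most like each member. Also named are miR-489-3p, for its shared seed, and markers of cell types, those single ones given with values being chosen after their values were seen. Reference and marker lists come from general knowledge. Alternatives were edgeR's quasi-likelihood test, DESeq2 1.42.0, other scalings and filters, leaving out libraries, and a block on the replicate number.

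Same-numbered whole tissue libraries of caput and cauda deviated weakly together (r = 0.206, 0.124 and 0.109 for numbers 1, 2 and 3). Whether the numbers pair the libraries was not tested. Elsewhere only 2 numbers could be compared. In whole tissue r was 0.2195 and 0.1285 between corpus and cauda and 0.0065 and -0.011 between caput and corpus. In epithelial cells r was 0.197 between caput and corpus, -0.019 between corpus and cauda and -0.063 between caput and cauda.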

Additional observations from a re-analysis of the deposited data

How the results depend on the processing

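Alternatives to the tests, scalings and filters gave 199 values for 26 results, of which 183 kept direction and side of the threshold. Leaving out single libraries gave 248 values, of which 220 did. The fall of miR-191-5p from caput to cauda kept both in whole tissue (log2 change from -1.82 to -1.42) and in epithelial cells (-1.56 to -1.14) under all of these. The tallies include the caput to corpus and caput to cauda changes of miR-191-3p in whole tissue, where the filter on identified miRNAs can itself set the caput apart. Each of these changes gave 8 alternative values and 8 with a library left out, all counted as kept. For values that changed side or sign, the cause was not tested unless stated. For miR-425-5p from caput to cauda in whole tissue the change was -0.26 (DESeq2 Wald test, FDR = 0.125), -0.25 (DESeq2 size factors, FDR = 0.0976), 0.0031 (library totals, FDR = 0.984), -0.33 (all miRNAs with a count, FDR = 0.0663), -0.31 (only miRNAs with 10 counts in each library, FDR = 0.0657), -0.32 (only these regions, FDR = 0.0579) and -0.13 (scaling by the 16 reference miRNAs, chosen after seeing the data, FDR = 0.399), and ran from -0.45 to -0.17 with single libraries left out, with FDR above 0.05 without caput replicate 2 or 3, either corpus replicate, or cauda replicate 2 or 3. Its caput to corpus change was 0.16 under library totals and -0.41 under reference scaling (FDR = 0.0382), and its corpus to cauda change 0.28 under reference scaling. The difference between preparations of miR-191-5p in the cauda was -0.34 (edgeR's quasi-likelihood test, FDR = 0.0540), -0.25 (library totals, FDR = 0.175) and -0.34 (replicate block, FDR = 0.117). The interaction of miR-191-5p was -0.013 with the 10-count filter and -0.014 under reference scaling.

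Ranges with single libraries left out were, in epithelial cells, -1.29 to -0.75 for miR-191-5p from caput to corpus and -0.41 to 0.75 for miR-425-5p from corpus to cauda. For differences between preparations they were -1.24 to -0.80 (miR-425-5p, caput), -2.17 to -1.07 (miR-425-5p, corpus) and -0.64 to -0.29 (miR-191-5p, cauda). For interactions they were -0.023 to 0.49 (miR-191-5p) and -0.60 to 0.10 (miR-425-5p). Between the highest and lowest region, the log2 ratio of miR-191-5p to miR-191-3p ranged from 1.97 to 2.28, and it was 2.04 with the replicate block (p = 0.0833, exact permutation within numbers, where fewer arrangements are possible). The block on replicate number, a pairing that was not tested, changed no call other than this ratio and the miR-191-5p cauda difference above. Of 70 group levels recomputed, 3 moved by more than 1 SD, all under library totals. Low counts limit the results for miR-191-3p and miR-425-3p most, at 2 counts or fewer in each corpus library.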

Other observations

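The caput to cauda changes of all other miRNAs were also expressed relative to each guide of the locus, as a description of what scaling by it would give. In whole tissue the median log2 change of the 354 other miRNAs tested was -0.04 under TMM and 1.73 relative to miR-191-5p. Relative to miR-191-5p, 86.7% of them were higher in the cauda, against 49.7% under TMM, and 242 were at least 2-fold higher, against 101. At least 2-fold lower were 17 relative to miR-191-5p and 89 under TMM. Relative to miR-425-5p the median was 0.30, 57.9% were higher, 117 were at least 2-fold higher and 65 at least 2-fold lower.

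In epithelial cells the median of the 215 others was 1.38 relative to miR-191-5p and 0.45 relative to miR-425-5p. The share higher in the cauda was 88.4% and 65.6%, against 50.2% under TMM. At least 2-fold higher were 136 relative to miR-191-5p and 62 relative to miR-425-5p, against 37 under TMM. At least 2-fold lower were 8 relative to miR-191-5p, against 37 under TMM, and 24 relative to miR-425-5p, against 38. These shifts follow by arithmetic from the changes of the guides themselves and were not tested.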
